A study of Mus musculus with 8 samples.

Results

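The collagen chain genes were followed across whole ankle joints of mice on 8 single-colour Affymetrix arrays. They were chosen by name: every probe set that the platform annotation assigns to a single gene whose symbol is Col, a number, the letter a and a number. That rule took 82 of the 45037 probe sets that are not controls, and they belong to 42 genes. By collagen class, 11 of these genes are fibrillar, 9 network-forming, 9 FACIT (fibril-associated collagens with interrupted helices) and 13 of other kinds (beaded filament, anchoring, transmembrane and multiplexin chains). The arrays fall into 3 groups, all of mice labelled as 5 months old. There were 3 arrays of mice that carry a human TNF transgene, hTNFa in the labels, and are labelled functionally null for sphingosine kinase 1 (Sphk1), 3 of mice with the same transgene and normal Sphk1 activity (hTNF), and 2 of wild-type mice with normal Sphk1. Both transgenic groups therefore share TNF overexpression. The strain, the promoter of the transgene, the design of the Sphk1 allele and the sex of the animals are not given in the sources used here.

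Collagens are secreted proteins whose chains wind around each other into a helix of repeated glycine-containing triplets. Fibrillar chains build the load-bearing fibrils of bone, tendon, skin, synovium and cartilage, network chains build basement membranes and the matrix around hypertrophic chondrocytes, and FACIT chains sit on the surface of fibrils. Type I collagen is the main protein of bone and tendon, types II, IX and XI form the fibrils of cartilage, and types III, V and VI are abundant in loose connective tissue such as synovium. In inflammatory arthritis, of which mice overexpressing TNF are a model, the synovium thickens and cartilage and bone are eroded.

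All values are log2 expression values of a probe set, as deposited, and a difference is a difference of 2 group means on that scale, with its standard error (SE). A probe set was tested where it exceeded the median of the whole table (6.87 log2) on at least 2 of the 8 arrays. This kept 55 of the 82 collagen probe sets, and 35 of the 42 genes had at least 1 of them. Each gene is represented by its brightest tested probe set. "Rose", "fell" and "called" refer to an adjusted p under 0.05 in a limma model over all 24115 tested probe sets. The other 7 genes, Col4a5, Col4a6, Col6a5, Col9a2, Col19a1, Col24a1 and Col26a1, stayed between 4.05 and 6.9 log2 on every probe set and array and were not tested in this setting. Of the 35 tested genes, 30 exceeded the filter on all 8 arrays. Col4a4 passed only through the 2 wild-type arrays, and Col4a3 through those and replicate 2 of the arrays labelled Sphk1 null, so their lower levels in hTNF joints are tied to the filter.

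The arrays differed in ways that the groups do not give. Across the tested probe sets, arrays of the same group correlated at 0.962 to 0.985 and transgenic with wild-type arrays at 0.862 to 0.916. The Sphk1 probe set that passed the filter read 10.22, 9.94 and 10 log2 on the 3 arrays labelled Sphk1 null, against 8.63, 8.65 and 8.28 in hTNF and 7.25 and 7.16 in wild type. The level thus goes against the null label, although the part of the gene that the probe set covers relative to the allele is not known, and the group is called "labelled Sphk1 null" throughout. Replicate 1 of the arrays labelled Sphk1 null, hTNF replicate 1 and wild-type replicate 2 held both Xist above 10 log2 and the Y-linked Eif2s3y above 5 log2. Skin markers varied within groups: the mean of 15 skin and keratinocyte markers ranged from 6.21 to 9.79 on the arrays labelled Sphk1 null, from 6.03 to 11.22 in hTNF and from 6.64 to 7.74 in wild type. The labels do not state whether the arrays in a group are of different animals, and the p-values therefore measure array-to-array spread only, part of which may be technical.

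Joints of hTNF mice held more transcript of the chains of types I, III, V and VI, and less of Col10a1 and Col22a1, than wild-type joints. Of the 35 tested collagen genes, 14 rose (types I, III, V, VI, XII, XIV and XVI and Col11a1) and 7 fell (Col10a1, Col4a4, Col9a1, Col22a1, Col4a3, Col9a3 and Col20a1), and 14 were not called. Among all 12362 tested genes, 16.5% rose and 19.6% fell, 36.1% in all. The median difference of the collagen genes was 0.14 log2, against -0.02 over all genes. The rise was at least 2-fold in 6 of the genes that rose, and the fall at least 2-fold in 4 of those that fell. Among the 7 that fell are Col4a3 and Col4a4, whose falls are tied to the filter, and Col4a4 is 1 of these 4. Fibroblast markers moved with the genes that rose: 5 of 10 rose and none fell, and their mean was 12.49 to 12.54 log2 in hTNF and 11.74 to 11.80 in wild type. Their part in the result was not tested. Groups did not overlap, with hTNF higher, in 14 collagen genes, against 28.7% of all genes, and with hTNF lower in 8, against 35.1%. In whole tissue, more or fewer cells of a type and more or less RNA per cell cannot be told apart.

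**Figure D1:**
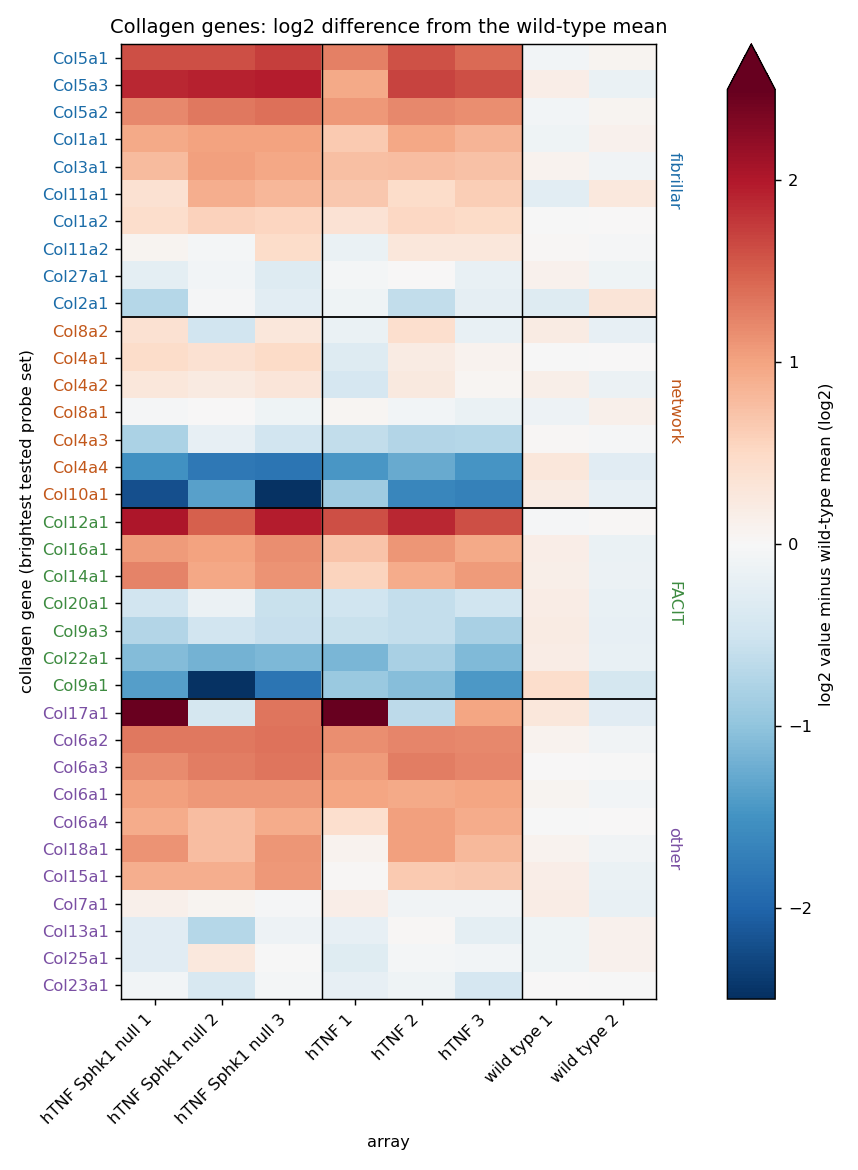
Heat map of the 35 tested collagen genes (rows, grouped by class and ordered by the hTNF minus wild-type difference) on the 8 arrays (columns). Colour is the log2 value minus the wild-type mean, with values beyond the ends of the scale drawn in the end colours. Fibrillar chains of types I, III and V and the type VI chains are red on all 6 transgenic arrays, and Col10a1, Col4a4, Col9a1 and Col22a1 are blue on all of them.

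The classes differed in their counts, which stand beside 16.5% of all genes higher and 19.6% lower. Among 10 fibrillar genes 7 rose, none fell and the median difference was 0.67 log2. Network genes rose in none of 7 and fell in 3, with a median of -0.07. Among these 3 are Col4a3 and Col4a4, whose falls are tied to the filter. All 7 tested FACIT genes were called, 3 higher and 4 lower. Of the 11 other genes, 4 rose and none fell, all 4 of them chains of type VI. Differences between classes were not tested.

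**Figure D2:**
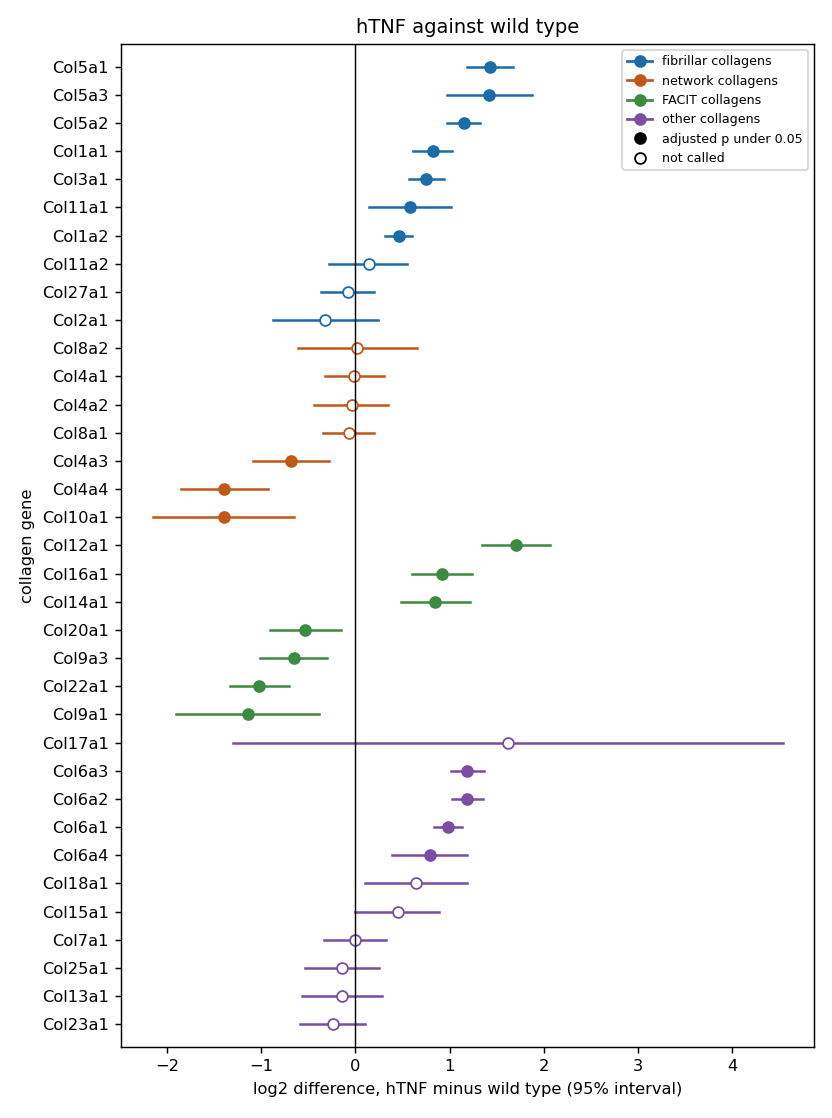
Difference between hTNF and wild type for each tested collagen gene (log2, horizontal axis), with the 95% interval from the limma model. Filled points were called at an adjusted p under 0.05 and open points were not. Points of fibrillar chains lie mostly to the right of 0, network chains at or to the left of it, and FACIT chains on both sides.

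Among the fibrillar chains taken by their brightest probe sets, Col5a1 and Col5a3 differed most. A dimmer Col3a1 probe set rose by more (1.84 ± 0.08). Type V collagen is a minor fibrillar collagen that sets the diameter of type I fibrils. Col5a1 read 12.53, 12.52 and 12.63 log2 on the arrays labelled Sphk1 null, 12.17, 12.51 and 12.33 in hTNF, and 10.85 and 10.97 in wild type. It rose by 1.43 ± 0.11 log2 (2.69-fold; SE, 3 arrays against 2; adjusted p = 3.27e-05) in hTNF against wild type. All 3 of its probe sets rose, by 1.36 to 1.82. Col5a3 read 12.25, 12.29 and 12.33 on the arrays labelled Sphk1 null, 11.32, 12.06 and 11.98 in hTNF, and 10.53 and 10.20 in wild type. hTNF replicate 1 was the lowest transgenic array, yet it lay above both wild-type arrays. The rise was 1.42 ± 0.20 log2 (2.68-fold, adjusted p = 0.000754). Their partner chain Col5a2 rose by 1.15 ± 0.08 (2.22-fold, adjusted p = 2.08e-05).

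Taken by their brightest probe sets, the chains of types I and III, the bulk fibrillar collagens, rose by less on the array. Col1a1 read 14.34, 14.40 and 14.39 log2 on the arrays labelled Sphk1 null, 14.05, 14.35 and 14.23 in hTNF, and 13.28 and 13.50 in wild type. This was a rise of 0.82 ± 0.09 log2 (1.77-fold, adjusted p = 0.000276) in hTNF, and every transgenic array was above both wild-type arrays. Its partner in the type I molecule, Col1a2, read 14.52, 14.66 and 14.63 on the arrays labelled Sphk1 null, 14.46, 14.61 and 14.57 in hTNF, and 14.08 and 14.10 in wild type, and rose by 0.46 ± 0.07 (1.37-fold, adjusted p = 0.000796). Col3a1, the chain of the type III homotrimer, read 14.31, 14.55 and 14.48 on the arrays labelled Sphk1 null, 14.27, 14.30 and 14.25 in hTNF, and 13.61 and 13.43 in wild type. The difference between hTNF and wild type was 0.75 ± 0.08 log2 (1.69-fold, adjusted p = 0.000211). These probe sets lie close to the top of the table (14.99 log2). A second, dimmer Col3a1 probe set rose by 1.84 ± 0.08. The probe sets of Col1a1 disagreed, as the dimmer one differed by -0.08 ± 0.18 (adjusted p = 0.768), while all 3 of Col1a2 rose, by 0.46 to 0.56.

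The fibrillar chains of cartilage did not move as a set. Col2a1, the chain of type II collagen, which makes the bulk of cartilage fibrils, read 9.38, 10.07 and 9.84 log2 on the arrays labelled Sphk1 null, 9.99, 9.47 and 9.87 in hTNF, and 9.78 and 10.41 in wild type. The groups overlapped, and the difference of -0.32 ± 0.25 between hTNF and wild type was not called (adjusted p = 0.375, 95% interval -0.88 to 0.24). Col11a1, whose chain forms type XI collagen inside cartilage fibrils, read 9.69, 10.23 and 10.15 on the arrays labelled Sphk1 null, 9.98, 9.78 and 9.93 in hTNF, and 9.05 and 9.58 in wild type. Its difference of 0.58 ± 0.20 only just passed (adjusted p = 0.0465). That call ended without hTNF replicate 1, 2 or 3, without wild-type replicate 1 and without replicate 3 of the arrays labelled Sphk1 null, with adjusted p of 0.104, 0.0645, 0.111, 0.367 and 0.066. Its other tested probe set differed by 0.14 ± 0.21 (adjusted p = 0.671). Col11a2 (0.14 ± 0.19) and Col27a1 (-0.08 ± 0.12), another cartilage fibrillar chain, were not called either.

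Type VI collagen forms beaded filaments around cells in muscle, tendon and synovium, from the chains of Col6a1, Col6a2 and Col6a3. Col6a1 read 13.50, 13.55 and 13.56 log2 on the arrays labelled Sphk1 null, 13.47, 13.43 and 13.47 in hTNF, and 12.54 and 12.41 in wild type. It rose by 0.98 ± 0.07 log2 (1.97-fold, adjusted p = 1.99e-05). Col6a2 read 13.61, 13.62 and 13.65 on the arrays labelled Sphk1 null, 13.46, 13.51 and 13.49 in hTNF, and 12.39 and 12.20 in wild type. The 3 hTNF arrays lay close together, and more than 1 log2 unit above the wild-type arrays. Col6a2 rose by 1.19 ± 0.07 (2.28-fold, adjusted p = 1.28e-05), and Col6a3 by 1.19 ± 0.08 (2.29-fold, adjusted p = 1.99e-05), with 13.57, 13.66 and 13.72 on the arrays labelled Sphk1 null, 13.46, 13.67 and 13.62 in hTNF, and 12.40 and 12.38 in wild type. The related, much dimmer Col6a4 rose by 0.79 ± 0.18 (adjusted p = 0.00772), and its call ended without wild-type replicate 1 (adjusted p = 0.0539).

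FACIT chains split in 2 directions. Col12a1, whose chain coats type I fibrils in tendon, ligament and fascia, had the largest rise when each gene is taken by its brightest probe set; dimmer probe sets of Col3a1 (1.84) and Col5a1 (1.82) rose by more. Col12a1 read 11.22, 10.70 and 11.17 log2 on the arrays labelled Sphk1 null, 10.82, 11.09 and 10.81 in hTNF, and 9.18 and 9.22 in wild type, a rise of 1.71 ± 0.16 log2 (3.26-fold, adjusted p = 0.000112). Its other tested probe set rose by 1.32 ± 0.15. Col16a1 (0.92 ± 0.14, adjusted p = 0.00122) and Col14a1 (0.85 ± 0.17, adjusted p = 0.00392), which are also found on fibrils of soft connective tissue, rose as well, though a second Col14a1 probe set missed the threshold (0.63 ± 0.25, adjusted p = 0.0852). Col9a1, a chain of the type IX collagen that decorates cartilage fibrils, read 7.54, 6.45 and 7.10 on the arrays labelled Sphk1 null, 8.0, 7.85 and 7.48 in hTNF, and 9.36 and 8.48 in wild type. It fell by 1.14 on the log2 scale (SE 0.34, fold 0.453, adjusted p = 0.0272). The 2 wild-type arrays were 0.88 apart, and without wild-type replicate 1 the difference was -0.70 (adjusted p = 0.248). The call also ended without hTNF replicate 2 (adjusted p = 0.0517) and replicate 3 (0.0865), and a second Col9a1 probe set differed by -0.35 ± 0.18 (adjusted p = 0.174). Col9a3 fell by 0.65 on the log2 scale (SE 0.16, adjusted p = 0.0107), a call that ended without wild-type replicate 1 (adjusted p = 0.119).

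Col22a1, a FACIT chain of the junction between muscle and tendon, was among the steadier falls. It read 9.96, 9.87 and 9.93 log2 on the arrays labelled Sphk1 null, 9.91, 10.23 and 9.94 in hTNF, and 11.23 and 10.86 in wild type. The difference between hTNF and wild type was -1.02 ± 0.14 (fold 0.494, adjusted p = 0.000657), and all 3 of its probe sets fell, by 0.96 to 1.08. Skeletal muscle markers moved with it: the mean of 11 markers was 12.76 to 13.14 log2 in hTNF, against 14.08 on both wild-type arrays. Of these 11 markers 10 fell, beside 19.6% of all genes. Their part in the result was not tested. Col20a1 fell by 0.53 on the log2 scale (SE 0.17, adjusted p = 0.0369). Without hTNF replicate 1, 2 or 3, or wild-type replicate 1, the adjusted p of Col20a1 was 0.0697, 0.1, 0.0809 and 0.297.

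Col10a1, the network-forming chain made by hypertrophic chondrocytes of the growth plate, had the largest fall. It read 8.88, 9.72 and 8.62 log2 on the arrays labelled Sphk1 null, 10.19, 9.46 and 9.40 in hTNF, and 11.29 and 10.88 in wild type. Every transgenic array was below both wild-type arrays, and the difference between hTNF and wild type was -1.40 ± 0.33 (fold 0.378, adjusted p = 0.0104). Without wild-type replicate 1 it was -1.20 (adjusted p = 0.0914). Other chondrocyte markers moved with it: 7 of 10 tested markers fell and 1 rose, beside 19.6% and 16.5% of all genes. Cnmd, 1 of the 10, passed the filter only through the wild-type arrays (8.19 and 7.11 log2), so its lower level is tied to the filter. The mean of all 13 markers on the array was 8.67 to 9.0 log2 in hTNF and 9.48 to 9.76 in wild type. Osteoblast and osteocyte markers fell in 4 of 8, beside the same 19.6%, with a mean of 8.79 to 9.24 in hTNF and 9.48 to 9.53 in wild type. Whether fewer chondrocytes in the sampled tissue account for these values was not tested.

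Type IV chains form the sheets of basement membranes, with Col4a1 and Col4a2 in nearly all of them and Col4a3, Col4a4 and Col4a5 in a restricted set. Col4a1 read 12.58, 12.52 and 12.61 log2 on the arrays labelled Sphk1 null, 11.81, 12.34 and 12.22 in hTNF, and 12.12 and 12.14 in wild type. The hTNF arrays lay on both sides of wild type, a difference of -0.01 ± 0.14 (adjusted p = 0.980, 95% interval -0.32 to 0.30). Its sign was positive without hTNF replicate 1 (0.15). Col4a2 gave -0.04 ± 0.18 (adjusted p = 0.888). Col4a4 was dim, with 5.88, 5.60 and 5.56 on the arrays labelled Sphk1 null, 5.94, 6.14 and 5.91 in hTNF, and 7.67 and 7.11 in wild type, and fell by 1.39 on the log2 scale (SE 0.20, fold 0.381, adjusted p = 0.000922). Col4a3 read 6.44, 7.04 and 6.77 on the arrays labelled Sphk1 null, 6.63, 6.51 and 6.53 in hTNF, and 7.27 and 7.21 in wild type. It fell by 0.68 on the log2 scale (SE 0.18, adjusted p = 0.0165). The Col4a3 call ended without hTNF replicate 3 (adjusted p = 0.0519) and without either wild-type array (0.0997 and 0.0648). The corneal and vascular network chains Col8a1 (-0.07 ± 0.12) and Col8a2 (0.02 ± 0.28) were not called.

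**Figure D3:**
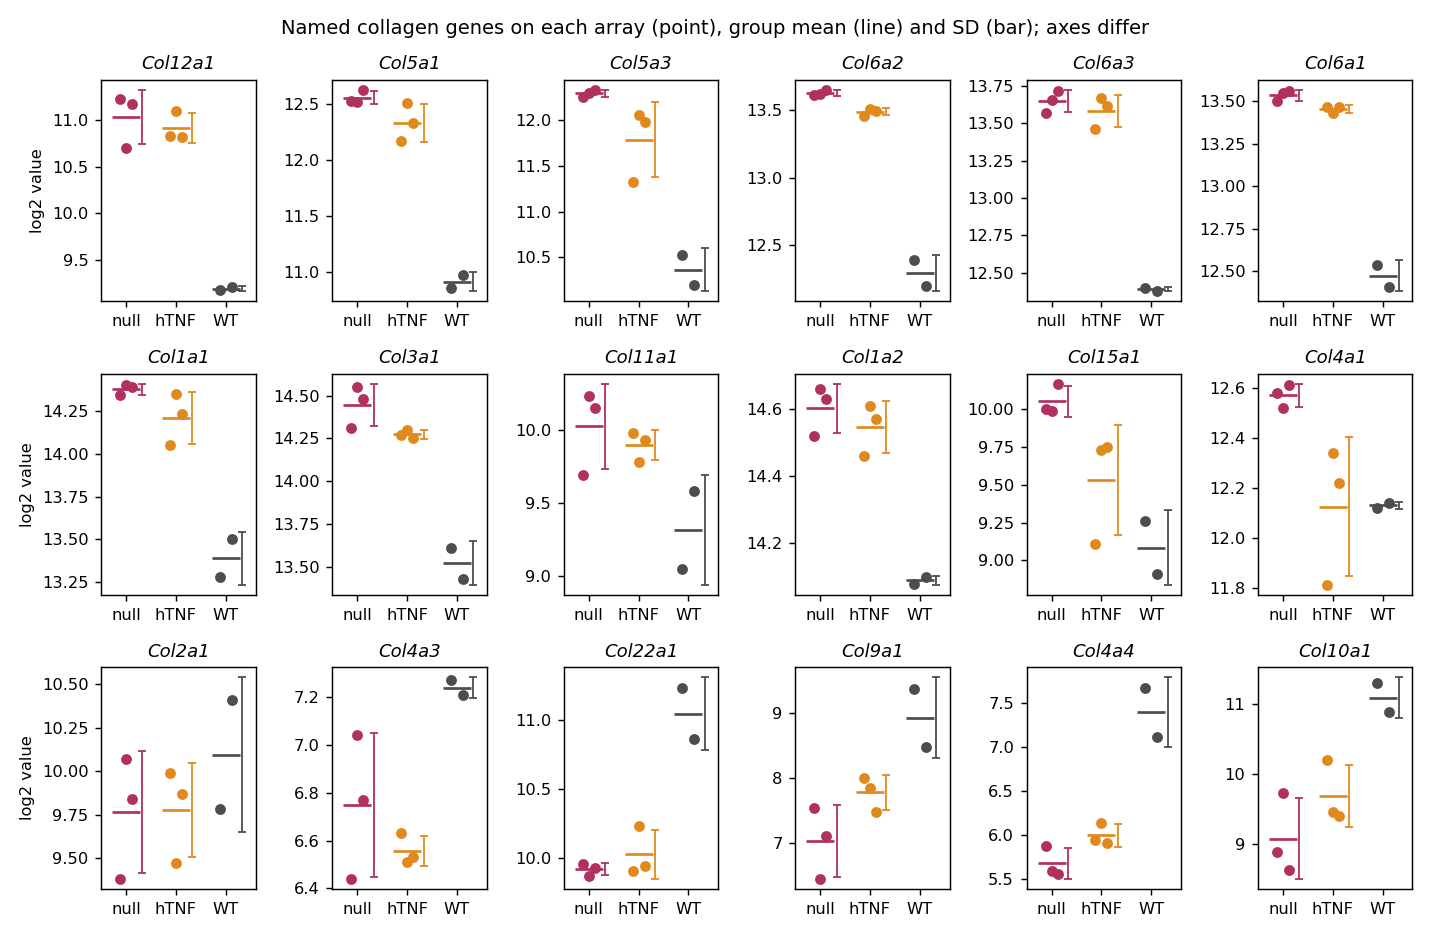
Log2 value on each array (points), group mean (line) and SD (bar) for 18 collagen genes given with full values (Col17a1 is plotted with the skin markers), ordered by the hTNF minus wild-type difference. In each panel the arrays labelled Sphk1 null (null) are on the left, hTNF in the middle and wild type (WT) on the right, and the vertical axes differ. All transgenic arrays lie above both wild-type arrays in Col12a1, Col5a1, Col5a3 and the type VI chains, and below them in Col22a1, Col9a1, Col4a3, Col4a4 and Col10a1.

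Promoter sequences of RefSeq, build GRCm38.p6, were read for genes whose direction the arrays show, from 250 bases before to 50 bases after the annotated start. A window was given for 33 of the 42 genes on the array (36 windows, as 3 genes have 2). The windows shown are those of Col1a2 (chr6:4505368-4505667, plus strand), Col3a1 (chr1:45311288-45311587, plus), Col5a1 (chr2:27886175-27886474, plus) and Col6a1 (chr10:76725995-76726294, minus), which rose, of Col10a1 (chr10:34389731-34390030, plus) and Col4a4 (chr1:82586800-82587099, minus), which fell, and of Col4a2 (chr8:11312555-11312854, plus), which was not called. Capitals mark matches, on either strand, to any of 4 motifs. The TATA box was searched as the letters TATAAA. The CCAAT box was searched by its own name. For the GC box the letters were GGGCGG. The AP-1 motif was searched as TGANTCA, with N for any base. A match is a description of letters and not a bound site.
Col1a2: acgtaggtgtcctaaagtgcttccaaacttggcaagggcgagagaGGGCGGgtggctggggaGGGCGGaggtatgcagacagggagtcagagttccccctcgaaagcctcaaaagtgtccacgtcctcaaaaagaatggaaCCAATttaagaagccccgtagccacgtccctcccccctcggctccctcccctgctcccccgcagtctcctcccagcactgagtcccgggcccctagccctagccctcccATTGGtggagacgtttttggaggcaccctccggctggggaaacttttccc
Col3a1: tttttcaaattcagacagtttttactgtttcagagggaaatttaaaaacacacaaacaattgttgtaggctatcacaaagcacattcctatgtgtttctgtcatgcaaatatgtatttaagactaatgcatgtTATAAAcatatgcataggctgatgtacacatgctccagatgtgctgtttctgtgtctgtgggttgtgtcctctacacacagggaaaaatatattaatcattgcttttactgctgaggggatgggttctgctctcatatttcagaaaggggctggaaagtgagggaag
Col5a1: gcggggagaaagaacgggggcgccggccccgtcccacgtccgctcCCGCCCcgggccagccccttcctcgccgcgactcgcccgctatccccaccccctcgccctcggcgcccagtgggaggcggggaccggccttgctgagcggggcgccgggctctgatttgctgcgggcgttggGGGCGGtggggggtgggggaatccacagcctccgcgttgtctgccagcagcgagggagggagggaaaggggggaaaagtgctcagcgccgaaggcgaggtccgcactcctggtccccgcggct
Col6a1: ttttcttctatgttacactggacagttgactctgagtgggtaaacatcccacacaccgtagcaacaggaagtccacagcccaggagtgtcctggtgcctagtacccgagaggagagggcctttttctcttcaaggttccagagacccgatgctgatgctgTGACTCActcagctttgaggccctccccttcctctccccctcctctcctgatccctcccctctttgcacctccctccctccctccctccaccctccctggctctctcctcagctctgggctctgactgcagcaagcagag
Col10a1: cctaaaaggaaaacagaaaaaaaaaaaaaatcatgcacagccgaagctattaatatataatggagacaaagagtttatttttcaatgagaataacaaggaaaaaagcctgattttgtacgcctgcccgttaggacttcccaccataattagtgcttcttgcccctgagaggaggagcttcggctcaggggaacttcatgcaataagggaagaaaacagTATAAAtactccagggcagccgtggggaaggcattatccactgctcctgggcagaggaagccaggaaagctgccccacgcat
Col4a4: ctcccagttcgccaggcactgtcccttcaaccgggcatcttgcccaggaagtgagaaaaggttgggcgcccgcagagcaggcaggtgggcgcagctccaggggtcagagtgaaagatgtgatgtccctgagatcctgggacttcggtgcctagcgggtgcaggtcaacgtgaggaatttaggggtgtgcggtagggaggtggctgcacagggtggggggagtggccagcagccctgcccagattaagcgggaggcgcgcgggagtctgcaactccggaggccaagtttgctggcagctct
Col4a2: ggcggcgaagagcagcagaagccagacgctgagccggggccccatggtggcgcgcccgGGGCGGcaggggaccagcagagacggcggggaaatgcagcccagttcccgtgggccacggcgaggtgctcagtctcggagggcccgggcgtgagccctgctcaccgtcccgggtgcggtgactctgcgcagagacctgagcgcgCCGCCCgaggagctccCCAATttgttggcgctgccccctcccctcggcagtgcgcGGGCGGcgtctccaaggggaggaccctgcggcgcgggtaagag
The windows differ in kind. That of Col1a2 holds 2 GC boxes and 2 CCAAT matches, and that of Col5a1 2 GC boxes, whereas the window of Col10a1 holds a TATAAA match 32 bases before the start and none of the other motifs. The Col3a1 window has only a TATAAA match, 117 bases before the start, and the Col6a1 window has only an AP-1 match, 90 bases before it. Col4a4 has none of these letters in its window. The windows of Col4a1 and Col4a2 lie on opposite strands and have 78 bases in common. Their annotated starts are 21 bases apart. The start of Col4a1, on the minus strand, has the higher coordinate (11312826, against 11312805), so the annotated transcripts overlap at their starts. Over all 32851 windows the share with a match was 35.7% for the GC box, 37.4% for CCAAT, 13.6% for TATAAA and 7.81% for AP-1. Among the 36 collagen windows it was 61.1%, 36.1%, 13.9% and 2.78% in the same order. Of the 11 windows of genes that rose, 8 held a GC box, against none of the 5 windows of genes that fell, a difference that was not tested. These windows belong to 10 of the 14 genes that rose and 4 of the 7 that fell, among them Col4a4, whose fall is tied to the filter.

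The remaining collagen genes belong to epidermal, vascular and transmembrane types, and none of them was called by its brightest probe set in hTNF against wild type. Col18a1, the basement membrane chain from which endostatin is cut, differed by 0.64 ± 0.24 (adjusted p = 0.0712), and the related Col15a1 by 0.45 ± 0.20 (0.121). Both were low on hTNF replicate 1, and without it they were called, at 0.92 (adjusted p = 0.0024) and 0.66 (0.00992). Endothelial and pericyte markers were also lowest on that array, with a mean of 9.42 log2, against 9.74 and 9.84 on the other hTNF arrays and 10.28 and 10.40 in wild type. In hTNF against wild type 8 of these 9 markers fell and none rose, beside 19.6% and 16.5% of all genes. The part of these markers in the values of Col15a1, Col18a1, Col4a1 and Col4a2 was not tested. Col13a1, Col23a1 and Col25a1, transmembrane collagens, differed by -0.14 to -0.24. The probe sets of Col23a1 disagreed, as the dimmer one fell by 0.50 on the log2 scale (SE 0.16, adjusted p = 0.0402).

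Col17a1, a transmembrane chain that anchors basal keratinocytes, had the widest spread between arrays of any tested collagen gene within both transgenic groups (SD 1.47 on the arrays labelled Sphk1 null and 2.64 in hTNF, against 0.39 in wild type). It read 8.17, 5.26 and 7.05 log2 on the arrays labelled Sphk1 null, 10.22, 5.05 and 6.70 in hTNF, and 5.98 and 5.43 in wild type. Its difference of 1.62 ± 1.30 between hTNF and wild type was far from the threshold (adjusted p = 0.388). The mean of the 15 skin markers was high and low on the same arrays, at 9.79, 6.21 and 8.81 on those labelled Sphk1 null, 11.22, 6.03 and 8.24 in hTNF, and 7.74 and 6.64 in wild type. Col7a1, the chain of the anchoring fibrils under the epidermis, stayed between 8.11 and 8.50 on all 8 arrays and did not show that spread (difference 0.00 ± 0.15, adjusted p = 0.995). With the skin marker level as a covariate, 21 collagen genes were called in hTNF against wild type, 20 of them shared with the fit without it.

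**Figure D4:**
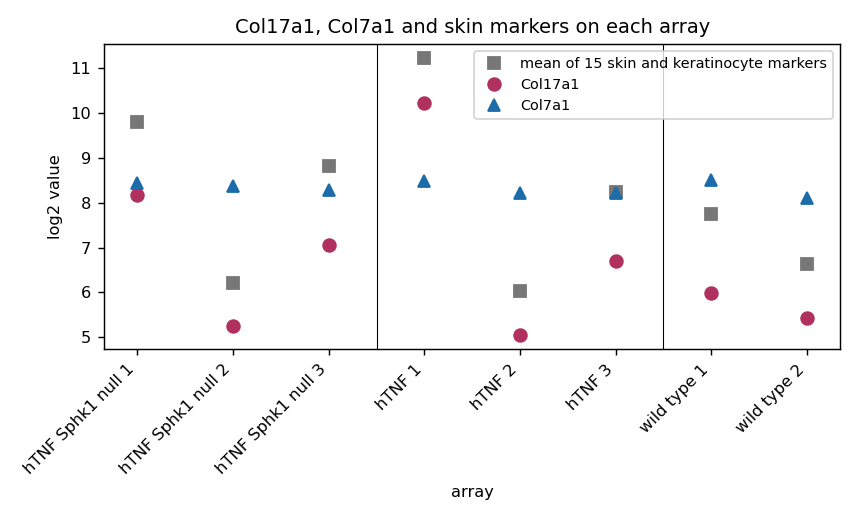
Log2 values of Col17a1, Col7a1 and the mean of the 15 skin and keratinocyte markers on each of the 8 arrays. Col17a1 and the marker mean are highest on hTNF replicate 1 and lowest on hTNF replicate 2, while Col7a1 is level across the arrays.

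Genes that act on collagen were taken from lists by role, and their counts stand against 16.5% of all genes higher, 19.6% lower and 36.1% called in either direction. Of 15 hydroxylase and glycosyltransferase genes, which modify prolines and lysines of new chains, 9 rose and 1 fell in hTNF against wild type, with a median of 0.54 log2. The P4hb call ended without hTNF replicate 2 or 3 (adjusted p = 0.0773 and 0.0731). The calls of P4ha2, Plod2 and Plod3 ended without wild-type replicate 2. That fit leaves 1 wild-type array, and these 3 genes differed by 0.47, 0.55 and 0.49 log2 there. P4ha3, a catalytic subunit of prolyl 4-hydroxylase, had 8.71, 8.14 and 8.44 log2 on the arrays labelled Sphk1 null, 7.82, 8.25 and 8.17 in hTNF, and 6.57 and 6.32 in wild type (1.64 ± 0.19, adjusted p = 0.000312). It passed the filter only through the 6 transgenic arrays, where it is high, so its difference is tied to the filter. The galactosyltransferase Colgalt1 rose by 0.89 ± 0.10 (adjusted p = 0.000239), and its paralogue Colgalt2 fell by 1.45 on the log2 scale (SE 0.16, adjusted p = 0.000232). Of 10 tested chaperone and secretion genes, 3 rose and 3 fell, among them the collagen chaperone Serpinh1 (0.67 ± 0.11, adjusted p = 0.00195), the endoplasmic reticulum channel gene Tmem38b (-1.04 ± 0.13, adjusted p = 0.00045) and Klhl12 (-0.71 ± 0.13, adjusted p = 0.00233), an adaptor for large secretory vesicles.

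Of 4 tested procollagen proteinase and enhancer genes, 3 rose and 1 fell, against 16.5% and 19.6% of all genes. The call of Pcolce (0.48 ± 0.12) ended without wild-type replicate 1, where its difference was 0.44. Bmp1, which cuts off the carboxyl propeptide, rose by 0.83 ± 0.14 (adjusted p = 0.00177). Pcolce2, an enhancer of that cut, fell by 1.85 on the log2 scale (SE 0.13, adjusted p = 2.02e-05), with 9.85, 9.79 and 9.56 log2 on the arrays labelled Sphk1 null, 10.03, 9.82 and 10.11 in hTNF, and 11.85 and 11.83 in wild type. Adamts3, an amino-propeptide protease, also met the filter only through the transgenic arrays and passed narrowly (0.67 ± 0.22, adjusted p = 0.0473), and its call ended without either wild-type array, without hTNF replicate 2 or 3 and without replicate 3 of the arrays labelled Sphk1 null (adjusted p = 0.0736 to 0.183). The crosslinking enzymes rose in 3 of 4 tested genes, with Loxl3 at 0.69 ± 0.11 (adjusted p = 0.00172), Loxl1 at 0.67 ± 0.13 (0.00442) and Loxl4 at 0.37 ± 0.12 (0.0391). The Loxl4 call ended without any single hTNF or wild-type array and without replicate 3 of the arrays labelled Sphk1 null (adjusted p = 0.0634 to 0.215). Lox itself differed by 0.34 ± 0.17 (0.171).

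Among 11 tested genes of collagen degradation, 5 rose and none fell, against 16.5% and 19.6% of all genes, and the median was 0.43 log2. The collagenase Mmp13 rose by 2.64 ± 0.23 (adjusted p = 6.27e-05) and the membrane-bound collagenase Mmp14 by 1.90 ± 0.19 (0.000135). The gelatinase Mmp9 rose by 1.95 ± 0.53 (0.0198), a call that ended without hTNF replicate 2 (0.0563) or wild-type replicate 1, where its difference was 0.79 (0.0776). The collagen receptor list also holds scavenger receptors. Of its 9 tested genes, 4 rose and 1 fell, again beside 16.5% and 19.6% of all genes. Marco (2.81 ± 0.48, adjusted p = 0.00202), Msr1 (1.80 ± 0.19, 0.000175) and Lair1 (1.59 ± 0.23, 0.000895), which rose, are expressed by macrophages and other leukocytes. Marco was below the filter on both wild-type arrays (5.36 and 5.58 log2) and was tested only through the transgenic arrays. Macrophage markers averaged 12.10 to 12.57 log2 in hTNF and 9.41 to 9.49 in wild type, and their part was not tested. The 1 that fell was Itga10, the integrin chain of cartilage that binds collagen (-1.13 ± 0.13, adjusted p = 0.000318), named after its values were seen.

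Between the transgenic groups no collagen gene was called. Across all genes 2 of 12362, or 0.0162%, were called, and limma gave an unadjusted p under 0.05 for 6 of the 35 collagen genes (5 higher and 1 lower on the arrays labelled Sphk1 null), against 6.27% of all genes (2.39% higher and 3.88% lower). The sign was positive in 27 of 35, against 44.6% of all genes, and the median difference was 0.09 log2, against -0.02. Col4a1 had the smallest p, with a difference of 0.45 ± 0.12 (95% interval 0.17 to 0.72, unadjusted p = 0.00518, adjusted p = 0.558), and all 3 arrays labelled Sphk1 null were above all 3 hTNF arrays. Col15a1 read 10, 9.99 and 10.17 log2 on the arrays labelled Sphk1 null, 9.11, 9.73 and 9.75 in hTNF, and 9.26 and 8.91 in wild type. It differed by 0.52 ± 0.18 (unadjusted p = 0.0161, adjusted p = 0.611), and Col5a3 by 0.50 ± 0.18 (0.0203 and 0.612). In both, hTNF replicate 1 was the lowest hTNF array. Col9a1 was lower, by -0.75 ± 0.30 (0.0341 and 0.648), with overlapping groups. The other tested Col9a1 probe set had the opposite sign, at 0.09 ± 0.16 (0.608 and 0.919). Without hTNF replicate 1 the unadjusted count was 3 higher and 0 lower, against 2.53% of all genes, and the smallest adjusted p of a collagen gene 0.999. Without replicate 1 of the arrays labelled Sphk1 null that smallest adjusted p was 0.133.

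**Figure D5:**
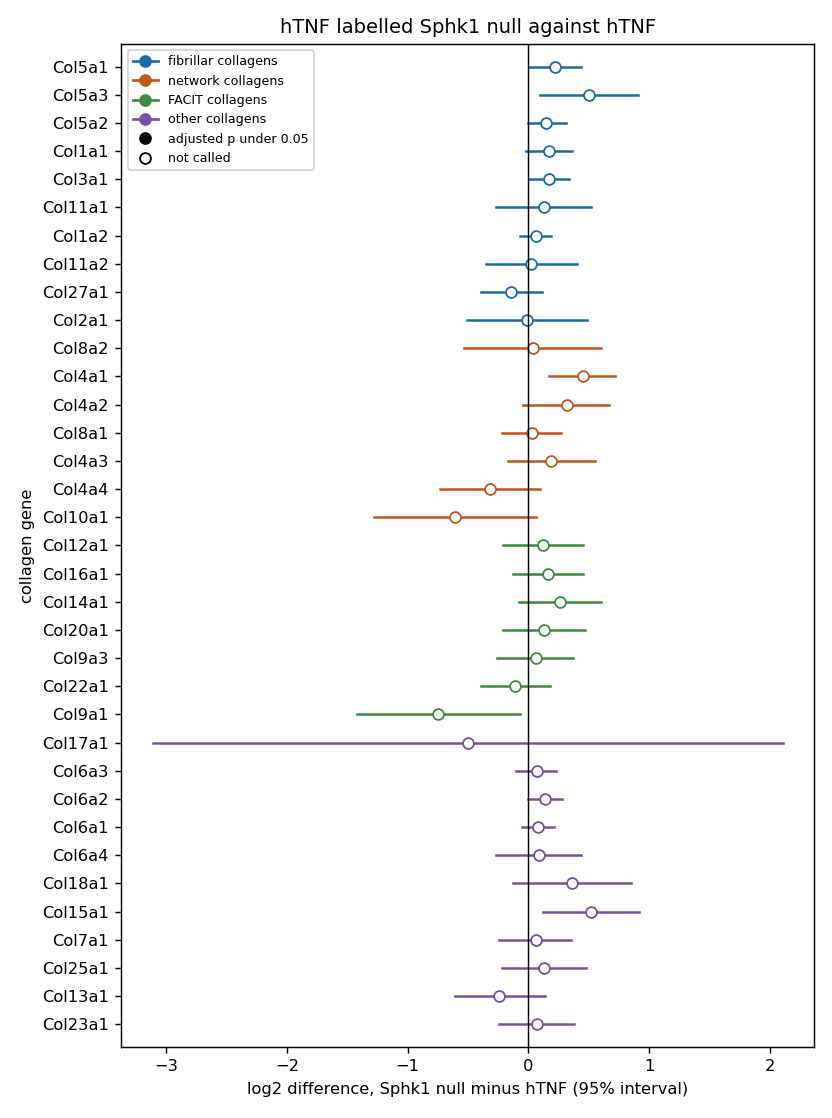
Difference between the arrays labelled Sphk1 null and hTNF for each tested collagen gene (log2, horizontal axis), with the 95% interval from the limma model and genes in the same order as in the plot of hTNF against wild type. All points are open, as none was called, and most lie slightly to the right of 0.

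Intervals for the bright chains were narrow. For Col1a1 the 95% interval of the difference between the transgenic groups ran from -0.02 to 0.36 log2, for Col1a2 from -0.07 to 0.19 and for Col6a1 from -0.05 to 0.21. For the cartilage chains it was wide, from -0.51 to 0.49 for Col2a1 and from -1.28 to 0.06 for Col10a1, where the difference was -0.61 ± 0.30 (adjusted p = 0.670). A dimmer Col1a1 probe set, which had not been called in hTNF against wild type, differed by 0.44 between the transgenic groups (adjusted p = 0.612).

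Against wild type, the joints labelled Sphk1 null gave 22 called collagen genes of 35, 17 higher and 5 lower, against 19.1% and 23.8% of all genes, 43% in all. This comparison shares its wild-type arrays with that of hTNF. The rises were led by Col5a3 (1.93 ± 0.20 log2, 3.8-fold, adjusted p = 0.000106), Col12a1 (1.83 ± 0.16, 3.56-fold, 5.02e-05) and Col5a1 (1.65 ± 0.11, 3.14-fold, 1.11e-05). The falls were Col10a1 (-2.01 ± 0.33, fold 0.248, 0.00122), Col9a1 (-1.89 ± 0.34, 0.00184), Col4a4 (-1.71 ± 0.20, 0.000207), Col22a1 (-1.12 ± 0.14, 0.00026) and Col9a3 (-0.60 ± 0.16, 0.0138). As Col4a4 passed the filter only through the wild-type arrays, its fall is tied to the filter here too. A second Col9a1 probe set was not called (-0.27 ± 0.18, adjusted p = 0.284). Col15a1 (0.97, adjusted p = 0.0041), Col18a1 (1.00, 0.0096) and Col4a1 (0.44, 0.0301) were called here and not in hTNF, although the direct difference between the transgenic groups was not called for any of them. The call of Col18a1 ended without wild-type replicate 2 (0.0652), that of Col9a3 without wild-type replicate 1 (0.147), that of Col11a1 without wild-type replicate 1 or replicate 2 or 3 of the arrays labelled Sphk1 null (0.051 to 0.172), and that of Col4a1 without any single array of either group (0.0511 to 0.124).

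Without the 3 arrays that held both Xist and Y-linked signal, 23 collagen genes were called in hTNF against wild type, 16 higher and 7 lower, and they included all 21 called with those arrays. The added genes were Col18a1 (0.83, adjusted p = 0.0135) and Col15a1 (0.48, 0.0282). For the arrays labelled Sphk1 null against wild type the same 22 genes were called, and between the transgenic groups again none, with 7 of 35 higher and 1 lower at an unadjusted p under 0.05, against 15.3% of all genes in that setting. In this setting wild type has 1 array, whose spread is taken from the other groups. That array, wild-type replicate 1, read Xist at 7.45 and Eif2s3y at 8.86 log2. Replicates 2 and 3 of the arrays labelled Sphk1 null, which stayed in, read Xist at 12.89 and 13.1 and Eif2s3y at 3.46. Between these groups, genotype therefore cannot be told apart from Xist and Y-linked signal in this setting. For collagen processing, P4ha2 (adjusted p = 0.07), Creb3l1 (0.15) and Loxl4 (0.133) were no longer called.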

How the data were processed

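Whole ankle joint RNA was measured on 8 single-colour Affymetrix arrays in 3 groups of 3, 3 and 2 arrays. TRIzol-extracted, column-purified RNA was made into biotin-labelled cRNA, per the labels' protocols. The values used are log2 expression, deposited as 1 table of 45101 probe sets. The submitters' processing notes name Expression Console, MAS5 and RMA, without saying which method produced the table. Array medians lie between 6.84 and 6.89, so differences in total RNA are not visible. Gene names come from the platform annotation; updating symbols by gene identifier (GRCm38.p6 table) changed no collagen symbol; 34945 probe sets had 1 gene, 932 several and 9160 none listed.

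From these values, 64 control probe sets and dim probe sets (above 6.87 on fewer than 2 arrays) were left out, which kept 24115. With limma 3.58.1 (R 4.3.3), group means were estimated from the 8 arrays together, with moderated variances and an intensity trend, with 5 residual degrees of freedom. P-values were adjusted by Benjamini-Hochberg within each contrast, across every tested probe set. Precision is limited by the number of arrays: the median standard error was 0.15 log2 in hTNF against wild type. The fit was tested on simulated data.

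The members and lists were chosen with earlier results of these data known. Values on each array were given for Col1a1, Col1a2, Col2a1, Col3a1, Col10a1, Col9a1, Col11a1 and Col6a1, the 5 largest rises and falls in hTNF against wild type, and the 4 smallest p between the transgenic groups; from each processing list the 3 largest called changes were named. Marker means use the brightest probe set of each gene, tested or not. Alternatives concerned the filter, normalization, offset, variance model, arrays in the fit, probe set choice, replicate number, skin level and single arrays.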

Additional observations from a re-analysis of the deposited data

How the results depend on the processing

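The counts of called collagen genes stayed within 1.5 times of 21 (hTNF against wild type), 0 (labelled Sphk1 null against hTNF) and 22 (labelled Sphk1 null against wild type) under all 19 alternatives. Leaving out 1 array gave 14 to 21, 0 and 19 to 22. The lowest, 14, was without wild-type replicate 1, where 12 were higher and 2 lower, and the calls of Col11a1, Col10a1, Col20a1, Col9a1, Col6a4, Col4a3 and Col9a3 ended. In all 8 of these fits, 14 of the 21 genes (12 higher, 2 lower) kept their call in hTNF against wild type and 18 of the 22 in the arrays labelled Sphk1 null against wild type. The other alternatives gave 19 to 23, 0 and 21 to 23. Without the dim filter Col24a1 was lower (-0.51, adjusted p = 0.0237). A filter asking for 4 arrays left 32 genes, without Col4a3, Col4a4 and Col17a1, and called 14 higher and 5 lower. Col4a4, whose fall is tied to the filter, is 1 of the 2 lower genes that kept their call in all 8 fits of hTNF against wild type. The other is Col22a1. Col4a4 is also among the 18 genes that kept their call in the arrays labelled Sphk1 null against wild type.

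Whether the numbers of the labels pair the samples cannot be decided from so few arrays. The deviations of same-numbered arrays labelled Sphk1 null and hTNF correlated at 0.23, 0.05 and 0.25. Those of differently numbered arrays of these groups correlated at -0.49 to 0.37. With the replicate block, 19, 0 and 21 collagen genes were called, and Col11a1 and Col20a1 (hTNF against wild type) and Col4a1 (labelled Sphk1 null against wild type) were lost.

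Among the genes given with values on each array and Col6a4, Col9a3 and Col17a1, signs turned only where no call was made. Without the 3 arrays that carried Xist together with Y-linked signal, Col4a1 (0.16) and Col17a1 (-0.11) turned in hTNF against wild type, Col2a1 (0.28), Col12a1 (-0.02), Col6a4 (-0.13) and Col17a1 (0.28) between the transgenic groups, and Col2a1 (0.17) in the arrays labelled Sphk1 null against wild type. Col4a1 in hTNF against wild type was 0.03 with the mean of probe sets and 0.07 with the skin covariate. Leaving out 1 array turned Col4a1 in hTNF against wild type (-0.11 to 0.15) and, between the transgenic groups, Col2a1 (range -0.17 to 0.18), Col6a4 (-0.10 to 0.20), Col9a3 (-0.02 to 0.12) and Col17a1 (-1.63 to 0.95). The cause of these changes was not tested. Dim chains near the filter, such as Col4a3 and Col4a4, are measured with the least signal.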

Other observations

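Between the transgenic groups, the collagen processing genes with the smallest unadjusted p were Plod2, a lysyl hydroxylase that acts on collagen telopeptides, and the chaperone Serpinh1; both were picked after their values were seen. Plod2 averaged 11.54 log2 on the arrays labelled Sphk1 null, 11.06 in hTNF and 10.49 in wild type, a difference of 0.48 between the transgenic groups (unadjusted p = 0.003, limma adjusted p = 0.54). Serpinh1 averaged 12.49 on the arrays labelled Sphk1 null, 12.15 in hTNF and 11.48 in wild type, a difference of 0.34 (unadjusted p = 0.00863, adjusted p = 0.592). Neither passed the adjusted threshold.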
